A study of Mus musculus with 18 samples.

Results

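The miR-17/92 and miR-106b/25 clusters are sets of microRNAs (miRNAs) encoded close together, and 9 of their mature miRNAs were followed in cartilage of mouse knees whose anterior cruciate ligament (ACL) had been ruptured. Members were taken by name. They are mmu-miR-17-5p, mmu-miR-18a-5p, mmu-miR-19a-3p, mmu-miR-20a-5p, mmu-miR-19b-3p and mmu-miR-92a-3p of miR-17/92, and mmu-miR-106b-5p, mmu-miR-93-5p and mmu-miR-25-3p of miR-106b/25, written below without the species prefix. All 9 were present among the 1412 mature miRNAs of the table, and all 9 were among the 428 that passed the expression filter and were tested. The deposited counts came from small RNA sequencing of cartilage caps from the femoral condyles of wild-type, skeletally mature male C57bl6 mice. In injured mice the ligament of the right knee was ruptured by a single mechanical load, which destabilises the joint. Injured right knees were collected at day 1 (day 1 ACL, n = 3) and day 7 (day 7 ACL, n = 3). The uninjured left knees of injured mice were collected at the same times (day 1 contralateral, n = 3; day 7 contralateral, n = 3). Mice with no rupture, labelled as day 7 controls, gave the naïve libraries (n = 6). Each library was made from the pooled cartilage of several mice. By the study's methods the naïve controls were 6 mice whose left and right knees were pooled apart, so naïve libraries share mice. Libraries were fitted as independent. The p-values measure the spread between these pools and treat the naïve group as more replicated than its mice allow. The cartilage was dissected and no cells were sorted, so fewer cells of a type and less RNA per cell cannot be told apart.

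A miRNA pairs through its seed, bases 2 to 8 from its 5′ end, with target mRNAs and lowers their translation and stability. The miR-17/92 cluster is a target of MYC and E2F transcription factors and is known for promoting proliferation and cell survival, in part by repressing the cell cycle inhibitor Cdkn1a. Loss of 1 copy of the human cluster causes a syndrome with skeletal malformations. The miR-106b/25 cluster is a paralog that lies within Mcm7, which encodes a subunit of the helicase that unwinds DNA at replication.

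The members fall into 4 seed families, and their mature sequences are shown because the families cross the clusters and because single bases separate several members from their closest relatives. Sequences are from RefSeq (GRCm38.p6), written 5′ to 3′ with the seed in capitals. The seed AAAGUGC belongs to miR-17-5p and miR-20a-5p of the first cluster and to miR-106b-5p and miR-93-5p of the other. miR-18a-5p has the seed AAGGUGC, miR-19a-3p and miR-19b-3p share GUGCAAA, and miR-92a-3p and miR-25-3p share AUUGCAC.
miR-17-5p: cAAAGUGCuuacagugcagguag
miR-20a-5p: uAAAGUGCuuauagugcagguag
miR-93-5p: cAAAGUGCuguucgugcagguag
miR-106b-5p: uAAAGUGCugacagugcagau
miR-18a-5p: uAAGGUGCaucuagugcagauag
miR-19a-3p: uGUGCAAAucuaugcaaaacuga
miR-19b-3p: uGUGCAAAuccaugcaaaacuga
miR-92a-3p: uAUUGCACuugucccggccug
miR-25-3p: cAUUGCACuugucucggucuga

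Counted from the 5′ end, miR-17-5p and miR-20a-5p differ by C1U and C12U, and miR-19a-3p and miR-19b-3p by U11C alone. The paralogous miR-106a-363 cluster on chromosome X holds near copies. miR-17-5p differs from miR-106a-5p by U10A, and miR-20a-5p differs from miR-20b-5p by U1C and U10C. The rule for assigning a read that fits more than 1 mature sequence is not given in the sources used here. None of the 9 members had the same counts as another miRNA, whereas 15 tested miRNAs did. The miR-17/92 members lie within 813 bases on the + strand (chr14:115043684-115044496, first to last mature base), in an exon of the non-coding host Mir17hg. The miR-106b/25 members lie within 476 bases on the − strand (chr5:138165332-138165807). Within Mcm7, the mature bases of Mir106b are intronic, and those of Mir93 and Mir25 overlap an exon of at least 1 annotated transcript. The mature sequences of miR-19b-3p and miR-92a-3p are also encoded on chromosome X (Mir19b-2 and Mir92-2), so their counts cannot be given to 1 locus.

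Total counts ran from 758388 in day 7 ACL replicate 1 to 4088852 per library, and the lowest count of any member in any library was 28. The cartilage miRNAs miR-140 and miR-455 were present in every library (4 of 4 arms tested), with a summed normalised abundance of 5029 to 10499 CPM (read counts scaled to the effective size of the library). Skeletal muscle miRNAs were more abundant, at 55106 to 274811 CPM over 7 arms, so the libraries labelled as chondrocyte also held the defining miRNAs of muscle. This sum follows mainly miR-1a-3p, with 5118130 counts over all libraries against 97541 for miR-206-3p, the next on the list. Vascular (endothelial and smooth muscle) miRNAs summed to 48414 to 98208 CPM and erythroid miRNAs to 5081 to 18452 CPM. One library stood apart. In day 7 contralateral replicate 1, miR-17-5p was at 98.9 CPM while miR-20a-5p was at 1533 CPM, a ratio of 15.5, whereas this ratio lay between 1.31 and 2.13 in the other 17 libraries. In the same library miR-25-3p was at 1360 CPM, against 4574 and 4461 CPM in the other replicates of its group. The 3 members that begin with C (miR-17-5p, miR-93-5p and miR-25-3p) were all lower there than in replicates 2 and 3, by log2 differences of −2.51, −0.81 and −1.73. Of the 6 members that begin with U, miR-106b-5p (−0.83) and miR-19b-3p (−0.45) were also lower, and the other 4 were higher, by up to 1.44 for miR-18a-5p. Of the tested miRNAs that begin with C, 49 of 74 were lower there, with a median difference of −0.61, against medians of −0.05 for A, 0.10 for G and 0.04 for U. Values without this library are given beside the results that it moved most.

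Levels differed widely within a cluster. In naïve cartilage miR-25-3p was the most abundant member, at 4494 ± 678 CPM (SD, n = 6), rank 38 of the 428 miRNAs. It made up 53.5% ± 4.75 (SD, n = 6) of the CPM of the 9 members. miR-93-5p followed at 1496 ± 148, miR-20a-5p at 1111 ± 259 and miR-17-5p at 659 ± 139 CPM. The other members were at 211 ± 62.1 (miR-19b-3p), 178 ± 48.1 (miR-92a-3p), 141.6 ± 47.9 (miR-19a-3p), 75.0 ± 25.3 (miR-106b-5p) and 40.4 ± 10.8 CPM (miR-18a-5p, rank 221). In this order, the naïve libraries of neighbours did not overlap only between miR-25-3p and miR-93-5p and between miR-17-5p and miR-19b-3p. The ranges of all other neighbours overlapped. Within each naïve library, miR-93-5p was above miR-20a-5p, and miR-20a-5p above miR-17-5p, at a ratio of 1.31 to 2.13. Likewise miR-19a-3p was above miR-106b-5p, and miR-106b-5p above miR-18a-5p. The order of miR-92a-3p against miR-19b-3p and miR-19a-3p varied between naïve libraries. The 9 mature sequences are 21 to 23 bases long, and levels of different miRNAs are compared here as read counts only. Between the 2 clusters, summed CPM was 6065 ± 714 for miR-106b/25 and 2342 ± 458 for miR-17/92 in naïve cartilage (SD, n = 6), a ratio of 2.68 ± 0.64.

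**Figure D1:**
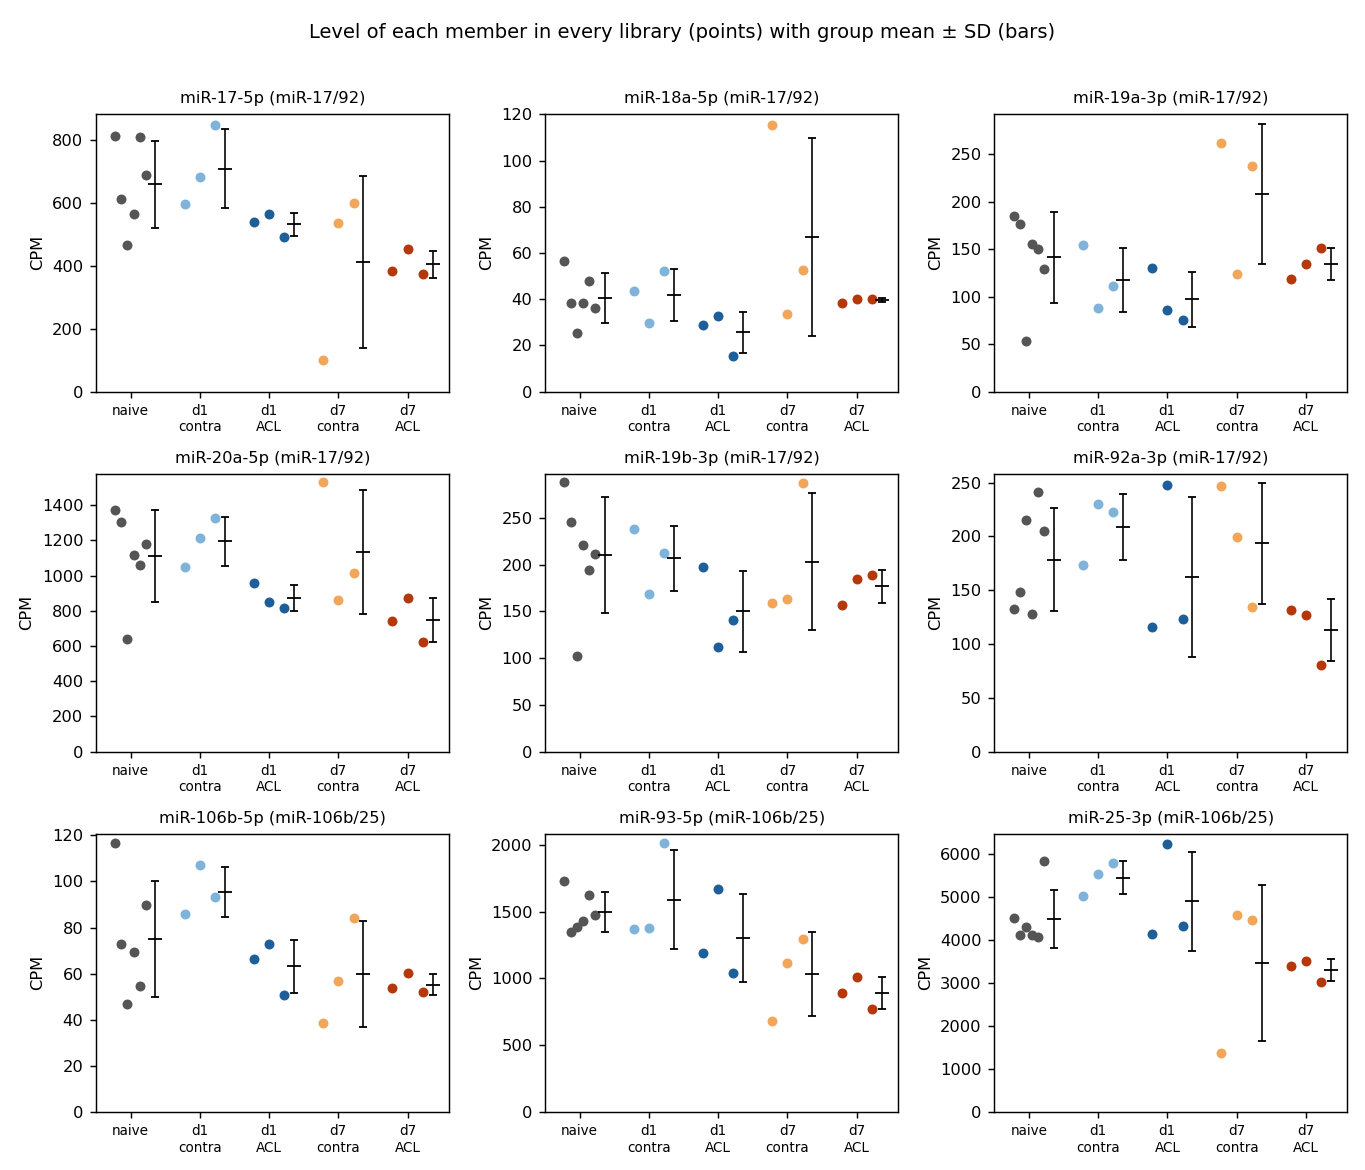
Normalised abundance (CPM, linear axis from 0) of each member, 1 panel per member, with 1 point per library and a bar for the group mean ± SD (d1 and d7, day 1 and day 7; contra, contralateral; n = 6 naïve, n = 3 in the other groups). The day 7 ACL libraries of miR-93-5p (767 to 1010 CPM) sit below all naïve libraries (1344 to 1726 CPM), and day 7 contralateral replicate 1 is far from its group for miR-17-5p, miR-18a-5p and miR-25-3p.

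Day 7 ACL cartilage was compared with naïve cartilage to ask whether the clusters change a week after injury. miR-93-5p fell. It was at 893, 1010 and 767 CPM in the day 7 ACL libraries, and in naïve libraries at 1344 to 1726 with a median of 1449 CPM, so that the groups did not overlap. The log2 fold change, given here and below ± SE, was −0.76 ± 0.23 (95% interval −1.23 to −0.28), or 1.69-fold lower, with limma-voom and a Benjamini-Hochberg adjusted p = 0.0200. It was the only member called lower (1 of 9), and none was called higher. Of all 428 tested miRNAs, 3.74% were called lower and 14.5% higher. The call was lost when day 7 ACL replicate 1 (log2 fold change −0.69, limma-voom adjusted p = 0.0992) or replicate 3 (−0.62, limma-voom adjusted p = 0.184) was left out. It was also lost with library totals alone as the scale (−0.89, limma-voom adjusted p = 0.0621).

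The other carriers of the AAAGUGC seed were also at lower values, without passing the test. miR-17-5p was at 383, 454 and 376 CPM in day 7 ACL libraries and at 465 to 813 (median 652) CPM in naïve libraries. These groups did not overlap, yet the log2 fold change of −0.68 ± 0.39 did not pass the test (limma-voom adjusted p = 0.286). Here 1 library outside the comparison set the call, through the spread that all groups share. Without day 7 contralateral replicate 1 in the fit, miR-17-5p was called, at −0.65 (limma-voom adjusted p = 0.0292), and miR-93-5p stayed called, at −0.72 (limma-voom adjusted p = 0.00884). That library was left out after seeing the data and stood apart by its own miR-17-5p value, so this call is not independent support. Over 10 fits that each left 1 library out, the miR-17-5p change ran from −0.75 to −0.58 (limma-voom adjusted p from 0.0292 to 0.570). miR-20a-5p was at 740, 872 and 623 CPM in day 7 ACL and 638 to 1371 (median 1147) CPM in naïve libraries. Only naïve replicate 3 lay within the day 7 ACL range, and the log2 fold change was −0.56 ± 0.24 (limma-voom adjusted p = 0.138). Without that naïve library, which alone made the groups overlap, it was −0.67 (limma-voom adjusted p = 0.0314). Over 10 fits that each left 1 library out, the miR-20a-5p change ran from −0.67 to −0.41 (limma-voom adjusted p from 0.0314 to 0.565). miR-106b-5p, at 53.6, 60.2 and 51.8 CPM, lay inside the naïve range of 46.7 to 117 CPM (−0.38 ± 0.29, limma-voom adjusted p = 0.427).

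The AUUGCAC pair was at lower values as well, and neither member passed the test. miR-25-3p was at 3384, 3502 and 3010 CPM, below every naïve library (4066 to 5836, median 4214 CPM), with a log2 fold change of −0.44 ± 0.29 (limma-voom adjusted p = 0.372). Its SD within groups on the log2 scale was 0.43, and 0.19 without day 7 contralateral replicate 1. Over 10 fits that each left 1 library out, its fold change ran from −0.47 to −0.32 (limma-voom adjusted p from 0.0793 to 0.680). miR-92a-3p was at 132, 127 and 80.4 CPM against 128 to 241 (median 177) CPM in naïve libraries, which overlapped (−0.66 ± 0.29, limma-voom adjusted p = 0.152). miR-19a-3p and miR-18a-5p were at nearly the same level in both groups. miR-19a-3p was at 118, 135 and 152 CPM against 52.8 to 185 (median 153) CPM, with a log2 fold change of 0.03 ± 0.35. miR-18a-5p was at 38.5, 40.3 and 40.2 CPM against 25.2 to 56.6 (median 38.3) CPM, with 0.02 ± 0.35, and both signs turned in several alternatives. miR-19b-3p, at 157, 185 and 189 CPM, lay within the naïve range of 103 to 288 CPM (−0.19 ± 0.29).

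As a group, 7 of the 9 members had a log2 fold change below 0, where 50% of all tested miRNAs did, and 3 of 9 were lower without overlap, where 8.64% of all tested miRNAs were. Their median was −0.44, beside −0.00 for all tested miRNAs, whose median absolute change was 0.42. By seed, the median was −0.62 over the 4 AAAGUGC members, −0.55 over the AUUGCAC pair and −0.08 over the GUGCAAA pair. By cluster, the median was −0.37 over miR-17/92, with 4 of 6 members below 0, and −0.44 over miR-106b/25, with 3 of 3 below 0. Summed CPM in day 7 ACL libraries was 1614 ± 181 for miR-17/92 and 4244 ± 379 for miR-106b/25 (SD, n = 3), and their ratio of 2.63 ± 0.12 lay within the naïve range of 2.19 to 3.82. Some markers of other cell types moved in the same comparison. Of 7 erythroid miRNA arms 4 were called lower, all from miR-486a and miR-486b, of which the 5p arms had identical counts, and miR-451a (−0.25) and miR-144-3p (−0.01) did not pass the test. The summed erythroid level was 5081 to 7028 CPM in day 7 ACL and 10449 to 15996 CPM in naïve libraries. This sum includes both identical miR-486 5p arms, with 157411 counts each over all libraries against 52349 for miR-451a. It therefore follows mainly miR-486. Of 8 leukocyte arms 1 was called lower (miR-150-5p), with sums of 8236 to 9687 against 6655 to 11228 CPM, which overlapped, and a list median of −0.11. All 6 tested muscle arms were below 0 and none was called, with a median of −0.69 and sums of 69630 to 133943 against 67516 to 198912 CPM. No cartilage (4) or vascular (6) arm was called, and no listed marker was at 0 in every library. The part of these cell types in the members' values was not tested.

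**Figure D2:**
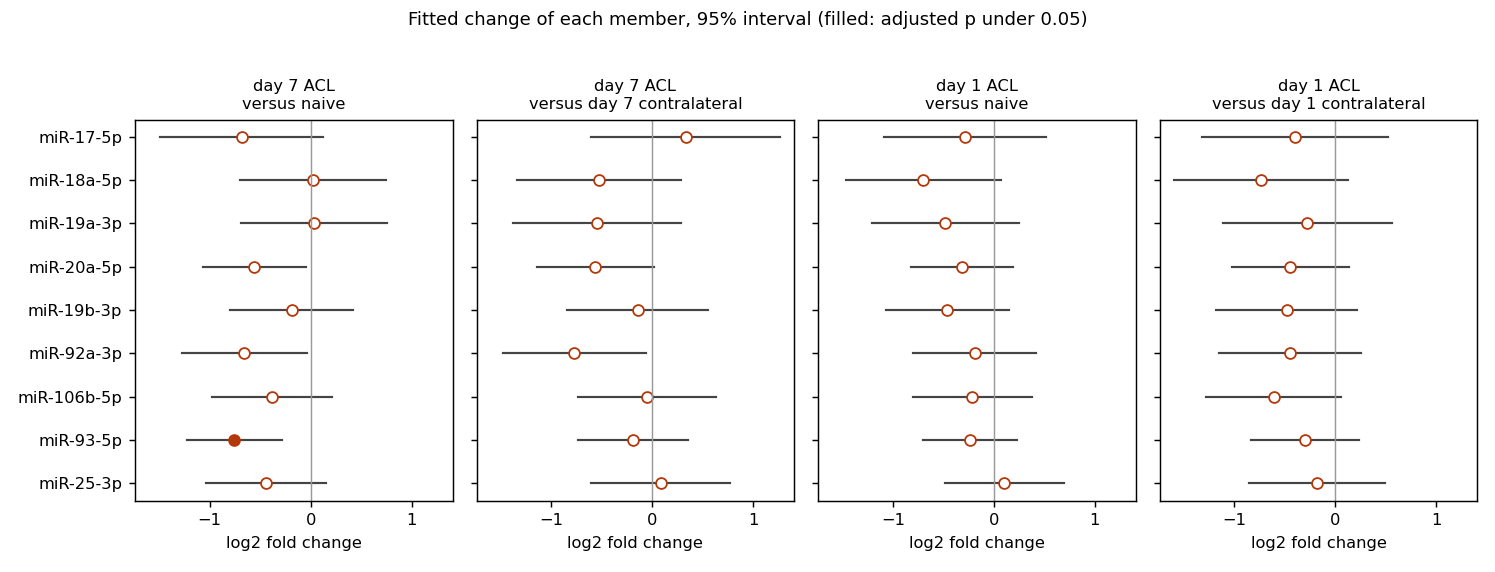
Fitted log2 fold change of each member (points) with its 95% interval (lines) in 4 comparisons, where a filled point has a limma-voom adjusted p under 0.05 and the vertical line marks no change. The only filled point is miR-93-5p in day 7 ACL versus naïve cartilage, at −0.76, and all 9 points of day 1 ACL versus day 1 contralateral cartilage lie below 0.

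Injured knees were then compared with the uninjured knees of the same injured mice at day 7. No member was called (0 of 9), where 14.7% of all tested miRNAs were. limma-voom gave 1 member at an unadjusted p under 0.05 (23.1% of all tested miRNAs), and edgeR's quasi-likelihood test and DESeq2 also called 0. miR-92a-3p had the largest log2 fold change, −0.77 ± 0.34 (limma-voom adjusted p = 0.163). It was at 132, 127 and 80.4 CPM in day 7 ACL and 247, 200 and 134 CPM in day 7 contralateral libraries, and was the 1 member of 9 that was lower without overlap (9.11% of all tested miRNAs were). Without day 7 contralateral replicate 1 its fold change was −0.51 (limma-voom adjusted p = 0.463). miR-20a-5p (−0.56 ± 0.28, limma-voom adjusted p = 0.232) and miR-19a-3p (−0.55 ± 0.40, limma-voom adjusted p = 0.456) were next in this comparison. Without the same library they were at −0.27 and −0.28.

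miR-93-5p, which fell against naïve cartilage, was at 683, 1115 and 1293 CPM in day 7 contralateral libraries, a range that enclosed the day 7 ACL libraries only through the first of these. The other contralateral libraries lay above all day 7 ACL libraries. Its log2 fold change against them was −0.19 ± 0.26 (95% interval −0.73 to 0.36; limma-voom adjusted p = 0.726), and −0.38 without replicate 1 (limma-voom adjusted p = 0.421). miR-17-5p was at 98.9, 537 and 601 CPM on the contralateral side, and its sign rested on the first of these libraries. The log2 fold change was 0.33 ± 0.45 with it (limma-voom adjusted p = 0.714) and −0.43 without it (limma-voom adjusted p = 0.383). The median over the 9 members was −0.19, beside −0.05 for all tested miRNAs, and −0.28 without replicate 1. Of 7 erythroid arms 2 were called lower and all 7 were below 0. The summed erythroid level, which again includes both identical miR-486 5p arms, was 9282 to 13438 CPM in day 7 contralateral libraries. This was above all day 7 ACL libraries as well. All 6 muscle arms were below 0 and none was called, with a median of −0.86 and sums of 136706 to 249876 CPM in day 7 contralateral libraries. The part of either cell type in these values was not tested. The comparisons of day 7 ACL with naïve and with contralateral cartilage share the day 7 ACL libraries.

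At day 1, no member and no other miRNA was called with limma-voom in ACL versus naïve cartilage (0% of 428; 8 miRNAs, or 1.87%, none of them a member, at an unadjusted p under 0.05) or in ACL versus contralateral cartilage (0%; 8 miRNAs, or 1.87%, none a member). edgeR and DESeq2 also called 0 in both. Against day 1 contralateral cartilage all 9 members had a log2 fold change below 0, where 51.2% of all tested miRNAs did, with a median of −0.45 beside −0.01. Of the members 3, miR-17-5p, miR-20a-5p and miR-106b-5p, were lower without overlap, where 6.31% of all tested miRNAs were. miR-20a-5p was at 955, 850 and 814 CPM in day 1 ACL and at 1047, 1214 and 1325 CPM in day 1 contralateral libraries (−0.45 ± 0.28, limma-voom adjusted p = 0.997). miR-106b-5p was at 66.3, 72.9 and 50.5 CPM against 85.8, 107 and 93.1 CPM (−0.61 ± 0.32). The fold changes ran from −0.73 for miR-18a-5p to −0.18 for miR-25-3p, and none passed the test.

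miR-18a-5p was the member furthest from naïve cartilage at day 1. It was at 28.7, 32.7 and 15.5 CPM in day 1 ACL libraries, which overlapped with the naïve libraries (−0.70 ± 0.37, limma-voom adjusted p = 0.992). Of the 9 members 8 were below 0 in this comparison, where 42.1% of all tested miRNAs were, and 0 were without overlap (1.4% of all tested miRNAs in either direction). miR-93-5p was at 1186, 1671 and 1041 CPM in day 1 ACL libraries (−0.23 ± 0.22, limma-voom adjusted p = 0.992), so that 2 of these libraries were below the naïve range and 1 was inside it.

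Between the 2 times after injury (day 7 ACL versus day 1 ACL) 15.7% of all tested miRNAs were called and 0 of 9 members. limma-voom also gave 0 members at an unadjusted p under 0.05 (27.6% of all tested miRNAs), and edgeR and DESeq2 called 0. Without overlap, 3 members were lower at day 7 (miR-17-5p, miR-93-5p and miR-25-3p; 15.7% of all tested miRNAs were) and 1 was higher (miR-18a-5p; 18.7%). miR-93-5p had a log2 fold change of −0.52 ± 0.26 (limma-voom adjusted p = 0.204), miR-25-3p −0.55 ± 0.33 (limma-voom adjusted p = 0.313) and miR-18a-5p 0.72 ± 0.42 (limma-voom adjusted p = 0.289). The change of the injury difference between the times was tested as an interaction, in which 6.78% of all tested miRNAs and 0 of 9 members were called. It was 0.11 ± 0.36 for miR-93-5p (limma-voom adjusted p = 0.959). For miR-17-5p it was 0.73 ± 0.63 (limma-voom adjusted p = 0.697), and 0.00 without day 7 contralateral replicate 1. In the interaction, limma-voom gave 0 members at an unadjusted p under 0.05 (16.4% of all tested miRNAs), and edgeR and DESeq2 called 0.

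Contralateral knees were compared with naïve knees to see whether the uninjured side stayed at the naïve level. In day 7 contralateral versus naïve cartilage no miRNA was called with limma-voom or edgeR (0% of 428; 23 miRNAs, or 5.37%, 2 of them members, at an unadjusted p under 0.05), and DESeq2 called 1 miRNA that was no member. miR-93-5p was again lower without overlap, the 1 member of 9 that was (0.935% of all tested miRNAs were), with a log2 fold change of −0.57 ± 0.22 (limma-voom adjusted p = 0.675). Without replicate 1 it was −0.34. miR-17-5p had −1.01 ± 0.39 (limma-voom adjusted p = 0.675) and −0.22 without replicate 1. miR-19a-3p was at 262, 124 and 237 CPM (0.58 ± 0.34, limma-voom adjusted p = 0.675). In day 1 contralateral versus naïve cartilage 1 of 9 members was below 0, where 37.1% of all tested miRNAs were, and none was called (0% of all tested miRNAs; 4 miRNAs, or 0.935%, and 0 members at an unadjusted p under 0.05, and 0 by edgeR and DESeq2). The largest was miR-106b-5p at 0.40 ± 0.27 (limma-voom adjusted p = 0.996). Without day 7 contralateral replicate 1 in the shared fit, 4 of 9 members were below 0.

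**Figure D3:**
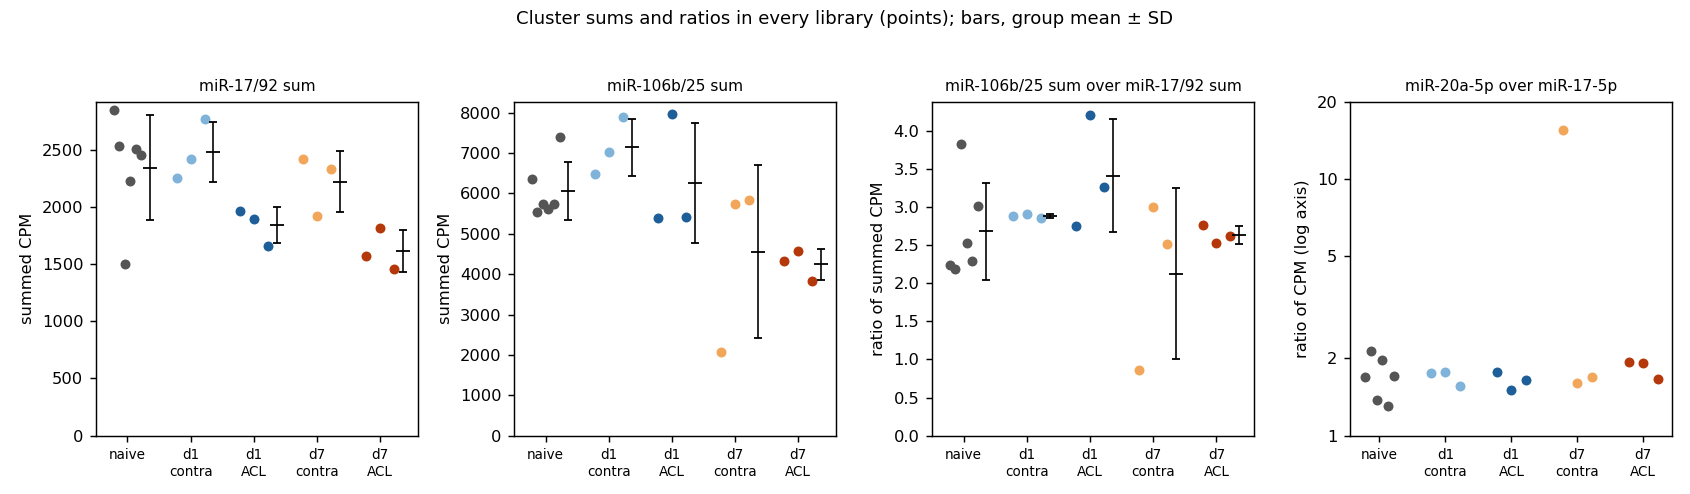
Summed CPM of each cluster, the ratio of the cluster sums and the ratio of miR-20a-5p to miR-17-5p (log axis), with 1 point per library and bars for the group mean ± SD in the first 3 panels. The day 7 ACL sums of miR-106b/25 (3829 to 4572) lie below all naïve sums (5537 to 7399), and the miR-20a-5p to miR-17-5p ratio is 15.5 in day 7 contralateral replicate 1 against 1.31 to 2.13 elsewhere.

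The arms of the member hairpins were compared because the named member need not be the arm that accumulates. Over all libraries, miR-106b-5p held only 12.98% of the counts of its hairpin (2543 of the 5p arm and 17042 of the 3p arm; 6.61% to 19.1% per library). miR-106b-3p, whose sequence has the seed CGCACUG, is shown because it is the abundant product of that hairpin.
miR-106b-3p: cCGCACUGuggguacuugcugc

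For the other 6 members with 1 hairpin, the member arm held 82.0% (miR-18a-5p), 97.1% (miR-17-5p) or between 99.5% and 99.97% of the counts. miR-106b-3p was at 283 CPM (median) in day 7 ACL libraries, with a range of 273 to 310, and at 364 to 702 CPM in naïve libraries. The groups did not overlap, and the log2 fold change of −0.81 ± 0.29 missed the threshold (limma-voom adjusted p = 0.0641). Of 11 opposite arms, 10 were in the table and 6 were tested. None was called in any comparison, and 5 of 6 were below 0 in day 7 ACL versus naïve cartilage (median −0.39).

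Paralogs and other carriers of the seeds were counted from lists of related miRNAs. Of the 8 mature miRNAs of the miR-106a-363 cluster 4 were tested, all 4 were below 0 in day 7 ACL versus naïve cartilage (median −0.54) and none was called in any comparison. The most abundant was miR-363-3p, with 46.4 ± 10.8 CPM (SD, n = 3) in day 7 ACL and 59.1 ± 21.8 CPM (SD, n = 6) in naïve cartilage. In day 7 contralateral replicate 1, miR-106a-5p was at 3.43 CPM against 22.4 and 21.6 CPM in the other replicates, and miR-20b-5p was at 8.24 against 46.2 and 51.2 CPM. Both begin with C, as miR-17-5p does, whereas miR-20a-5p begins with U. Not all related miRNAs differed there by first base. miR-106b-3p also begins with C and was higher there, at 519 CPM against 465 and 422 CPM. miR-363-3p begins with A and was lower, at 44.6 against 70.7 and 60.7 CPM. The sequences of miR-106a-5p and miR-20b-5p are shown for their first base.
miR-106a-5p: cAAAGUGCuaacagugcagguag
miR-20b-5p: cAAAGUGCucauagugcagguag

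From other loci, miR-92b-3p and miR-32-5p share the AUUGCAC seed and were tested, and neither was called in any comparison. miR-92b-3p, the more abundant, was at 243 ± 57.3 CPM (SD, n = 3) in day 7 ACL and 372 ± 145.4 CPM (SD, n = 6) in naïve cartilage.

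By median r, pairs of members that share a seed were more alike across libraries than pairs that share a cluster, as a description. Some pairs, such as miR-17-5p with miR-20a-5p, share both. Over the 18 libraries the median Pearson r of log2 CPM was 0.59 for the 8 pairs with the same seed and 0.15 for the 28 pairs with different seeds. It was 0.40 for the 18 pairs of the same cluster and 0.12 for the 18 pairs across clusters, against 0.00 over all pairs of tested miRNAs. Within miR-106b/25 all pairs were above the same-seed median, at 0.71 (miR-106b-5p with miR-93-5p), 0.70 (miR-106b-5p with miR-25-3p) and 0.81 (miR-93-5p with miR-25-3p). miR-92a-3p and miR-25-3p share a seed across clusters and were at 0.16. Points in these correlations share libraries and the injury groups. Without day 7 contralateral replicate 1 the medians were 0.79 and 0.44 by seed, and 0.51 and 0.50 by cluster. The miR-106b/25 pairs were then at 0.61, 0.62 and 0.76, below the same-seed median, and miR-92a-3p with miR-25-3p was at 0.76. The closest pair in those 17 libraries was miR-19a-3p with miR-19b-3p (r = 0.91), followed by miR-17-5p with miR-93-5p of the other cluster (0.88) and miR-17-5p with its neighbour miR-20a-5p (0.87, but 0.03 with that library included). miR-19a-3p and miR-19b-3p differ by 1 base, and the rule for a read that fits both is not given in the sources used here. miR-19a-3p and miR-92a-3p, of the same cluster, had r = −0.41.

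**Figure D4:**
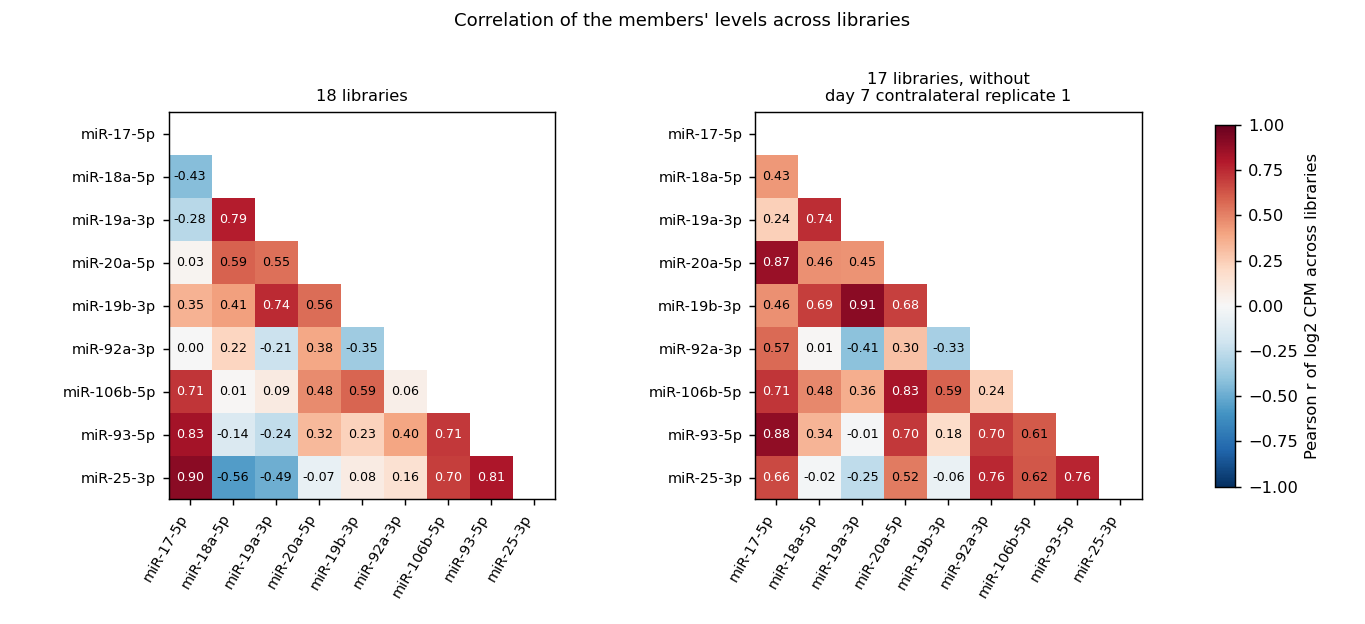
Pearson r between members' log2 CPM across 18 libraries (left) and 17 libraries without day 7 contralateral replicate 1 (right), with blue below 0 and red above 0. The miR-17-5p and miR-20a-5p square changes from 0.03 to 0.87, and the miR-19a-3p and miR-19b-3p square is 0.74 on the left and 0.91 on the right.

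Outside the members and their opposite arms, the 5 tested miRNAs with profiles most like the members' mean were miR-144-5p (r = 0.82 over 18 libraries), miR-15b-3p (0.77), miR-223-5p (0.75), miR-223-3p (0.72) and miR-20b-5p (0.72). Without day 7 contralateral replicate 1, r was 0.91 for miR-20b-5p and 0.74 to 0.86 for the other 4. miR-144-5p stands on the erythroid marker list and both miR-223 arms on the leukocyte list. None of these 5 was called in day 7 ACL versus naïve cartilage. miR-223-3p was nearest, at −0.75 ± 0.28 (limma-voom adjusted p = 0.0744). Within groups, the SD on the log2 scale ran from 0.29 for miR-93-5p to 0.61 for miR-17-5p, beside a median of 0.46 over all tested miRNAs. Without the same library, it ran from 0.19 for miR-25-3p to 0.53 for miR-19a-3p, with 0.24 for miR-17-5p and a median of 0.39.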

How the data were processed

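The members and lists were chosen with earlier results of these data known. Small RNA sequencing gave 18 libraries in 5 groups, taken from the treatment labels. Per the study's methods and the submitters' processing notes, the authors trimmed adapters with Trim Galore 0.6.6, aligned reads to miRBase mature sequences with Bowtie 1.3.0 and counted them with SAMtools 1.12, with the GRCm38 genome set. The deposited values are raw counts per mature miRNA, not normalised. The miRBase release and the treatment of reads that match several sequences are not given in the sources used here. Table names were matched to samples by library number, although the prefix before the number differs. All value columns were mapped.

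In R 4.3.3, filterByExpr of edgeR 4.0.16 (minimum count 10, minimum total 15) kept 428 of 1412 miRNAs. TMM scaling and limma 3.58.1 (voom, lmFit, eBayes) were applied to all libraries with 1 mean per group. Each of 8 contrasts was adjusted by Benjamini-Hochberg over 428 miRNAs, with a threshold of 0.05. CPM uses TMM library sizes, and log2 CPM a prior count of 2. A miRNA is without overlap where every library of one group lies beyond every library of the other. Totals of 758388 to 4088852 counts limit precision by counting error, and reads were not counted as molecules. The study modelled shared mouse pools with duplicateCorrelation. Pool membership is absent from the labels, and libraries were treated as independent. In 27 pairs of replicates, chi-square per degree of freedom was at least 52.0, so no pair looked like 1 library deposited again.

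The text names the 9 members, any related miRNA (opposite arms, the miR-106a-363 cluster, other loci with a member's seed) called in a comparison or most abundant on its list, and the 5 most similar other tested miRNAs. miR-106a-5p and miR-20b-5p in day 7 contralateral replicate 1, and the miRNAs of the marker lists, are named beyond this rule. Replicates are numbered in accession order. Sequences and positions are from RefSeq GRCm38.p6 tables, and host genes from the annotation of that build. The fit was tested on simulated counts for day 7 ACL versus naïve cartilage, with 428 miRNAs. It recovered 10.7% of 1.5-fold, 55.5% of 2-fold and 100% of 4-fold changes. Of the calls, 4.55%, 3.64% and 2.96% in the same order were of miRNAs left unchanged. The simulated libraries were independent, so these shares do not cover libraries that share mice. Alternatives were DESeq2 size factors, library totals, filters on low counts, DESeq2 1.42.0, a depth covariate, edgeR's quasi-likelihood test, voom with quality weights, summed paralogs, fits of only the groups compared and each library left out. Leaving day 7 contralateral replicate 1 out of every fit, and out of the spreads and correlations, was added after seeing the data. Plots used matplotlib 3.10.9 in Python 3.11.15.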

Additional observations from a re-analysis of the deposited data

Results flagged for a closer look

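In the naïve group, the only group with enough libraries for Dixon's test, miR-25-3p in naïve replicate 6 was at 5836 CPM, far above the next naïve library at 4513 CPM. The gap was 0.747 of the range of the 6 libraries. The sum of miR-25-3p and miR-92a-3p, the AUUGCAC members, stood apart in the same library, at 6042 against 4646 CPM, and is nearly all miR-25-3p. These were 2 of 22 quantities tested, and chance flags about 1 in 20. Without naïve replicate 6, miR-93-5p stayed called in day 7 ACL versus naïve cartilage (log2 fold change −0.72, limma-voom adjusted p = 0.0337).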

How the results depend on the processing

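In day 7 ACL versus naïve cartilage 1 member was called. The count was 0 with library totals only and with every miRNA of at least 1 count, 2 with only the 2 groups fitted, 2 without day 7 contralateral replicate 1 and 4 with quality weights (miR-17-5p, miR-20a-5p, miR-93-5p and miR-25-3p). With each library left out it ran from 0 to 2. miR-93-5p was below 0 in all 20 alternatives (−0.89 to −0.62) and called in 16. With every miRNA of at least 1 count it was −0.79 (limma-voom adjusted p = 0.0536). In day 7 ACL versus day 7 contralateral cartilage the count was 0, and 1 with the log10 library total as a covariate (miR-92a-3p, −0.92, limma-voom adjusted p = 0.0355). In the other 6 comparisons 0 members were called in every alternative.

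Values near 0 changed sign. For miR-18a-5p in day 7 ACL versus naïve cartilage the log2 fold change became −0.10 with library totals, −0.011 with every miRNA of at least 1 count, −0.024 with edgeR, −0.021 with DESeq2, −0.042 with quality weights and −0.017 with paralogs summed, and with libraries left out ran from −0.064 to 0.18. miR-19a-3p became −0.11 with library totals, −0.066 with edgeR, −0.058 with DESeq2 and −0.15 with quality weights, and ran from −0.19 to 0.19. miR-17-5p against day 7 contralateral cartilage became −0.030 with edgeR, −0.0063 with DESeq2 and −0.30 with quality weights, and ran from −0.43 to 0.76. The miR-93-5p interaction ran from −0.048 to 0.37. Over all members and comparisons, 24 of 72 pairs changed sign in some alternative, none with a log2 fold change beyond 0.52 as reported. The causes were not tested.

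Calls over all miRNAs moved more than the members. With at least 10 counts in every library they were 48 in day 7 ACL versus naïve, 38 versus day 7 contralateral and 44 versus day 1 ACL cartilage (78, 63 and 67 as reported). Quality weights gave 135 and 109 in the first and last of these, and DESeq2 gave 1 in day 7 contralateral versus naïve cartilage. Library totals moved the median of all miRNAs by −0.13 in day 7 ACL and −0.20 in day 1 ACL versus naïve cartilage, and the share of higher calls in day 7 versus day 1 ACL from 77.6% to 94.2%. No paired analysis was possible because the labels give no replicate numbers shared between groups.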
